A study of Mus musculus with 20 samples.

Results

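The transcripts of 9 genes for the uptake, transport and storage of lipid were followed in microglia of the injured mouse spinal cord. Of these, 6 encode scavenger receptors (*Msr1*, *Marco*, *Cd36*, *Scarb1*, *Stab1* and *Colec12*), 2 encode fatty acid-binding proteins (*Fabp5* and *Fabp4*) and 1 encodes a lipid droplet coat protein (*Plin2*). The genes were chosen by name, with earlier results of these data known, and all 9 were found among the 16810 genes of the table. Scavenger receptors bind modified lipoproteins, apoptotic cells, microbes and other polyanionic debris at the cell surface, and differ widely in structure. Lipid that enters the cell is carried through the cytosol by fatty acid-binding proteins and is stored, after esterification, in droplets coated by perilipins. Microglia and macrophages that clear myelin after a lesion are known to load with such droplets.

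Microglia were sorted as eGFP-high cells from male mice, 12 weeks of age at lesion, that carry 1 copy of eGFP in the *Cx3cr1* locus (CX3CR1+/eGFP). In these mice monocytes are also labelled. The 3 control samples came from non-injured (NI) mice. The injured mice had a lesion at thoracic level 9, either a lateral hemisection (HS; 3 samples at 72 h, 2 samples at 1 week, 3 samples at 2 weeks) or a full transection (FT; 3 samples for each of the 3 times). Each sample came from a segment of 1 cm around the lesion, or from the matching thoracic segment in NI mice. The study used more mice than libraries, whether each library pooled several mice was not stated, and the p-values below measure the spread between libraries. All comparisons with NI share the same 3 NI samples.

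Polyadenylated RNA was amplified to cDNA and sequenced, and values are in CPM, read counts that the authors scaled to library size with an edgeR factor. The 20 samples had 3.87 to 34.1 M reads on these genes (median 10.1 M), so that 1 read was worth 0.0330 to 0.292 CPM, which covers counting error only. Replicates differed by far more than sampling noise in all 19 pairs. FT 1 week replicate 1 stood farthest from its group, with a root mean square distance of 0.76 on the log2 scale to each of its replicates, against 0.36 to 0.67 in the other 17 pairs. All 11 microglial markers examined were present, with a summed level of 19426 to 39681 CPM. All 5 adipocyte markers examined were not listed. Summed levels of 9 monocyte markers were 34.9 to 49.8 CPM in NI, 74.4 to 156 CPM at 72 h after HS and 108 to 294 CPM at 72 h after FT, and 42.9 to 109 CPM at the later times. By the rule for calls given below, 3 of these 9 markers were higher than in NI at 72 h after HS (9.08% of all genes) and 5 at 72 h after FT (8.14%). At 1 week after HS 1 was higher (*Itga4*; 1.70% of all genes). *Ccr2*, with a mean of 39.9 CPM over the 20 samples, and *Itga4*, with 23.7 CPM, weigh most in these sums. In bulk samples of this kind, a change in the number of cells of a type cannot be told apart from a change of RNA per cell.

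**Figure D1:**
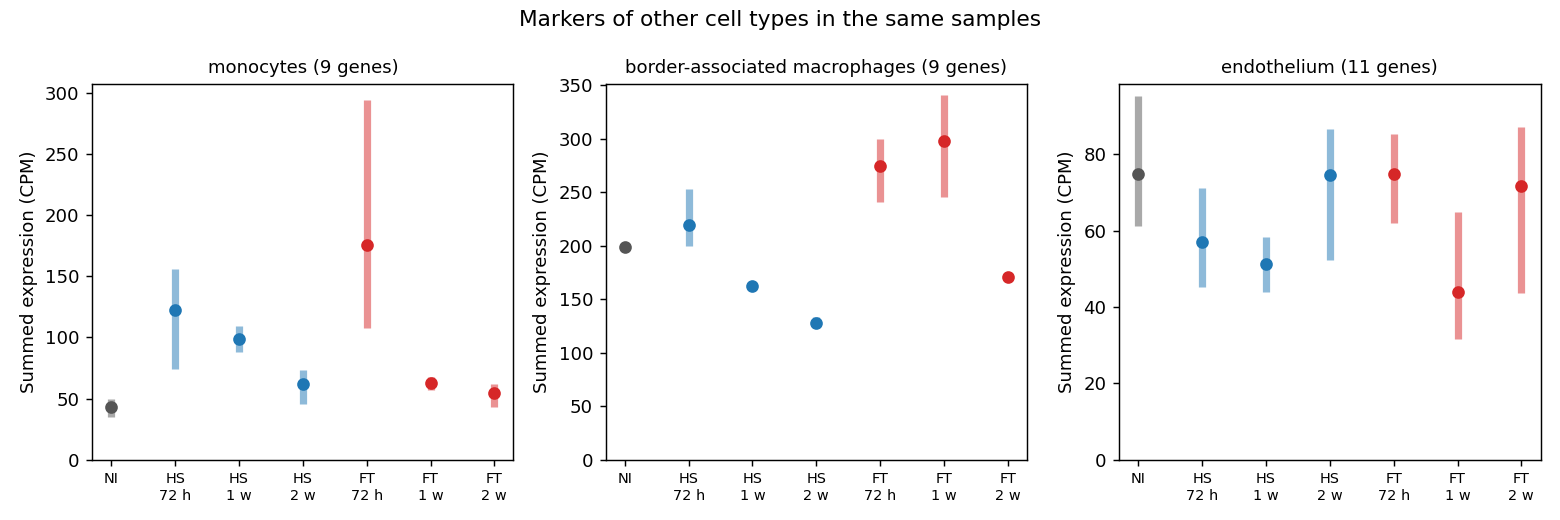
Summed expression in CPM (y axis, from 0) of markers of monocytes, border-associated macrophages and endothelium in the 7 groups (x axis). Circles are group means and bars run from the lowest to the highest sample. Monocyte markers peaked at 72 h, at up to 294 CPM, and markers of border-associated macrophages were lowest at 2 weeks after HS, at 123 to 133 CPM.

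Promoter windows (250 bases before to 50 bases after the start of the transcript, RefSeq, GRCm38.p6) were found for 4 of the 9 genes: *Cd36*, *Marco*, *Stab1* and *Plin2*. Windows are printed below for *Plin2* and *Marco*, both higher at 72 h after either injury, and for *Stab1*, which fell between 72 h and 2 weeks. Capitals mark matches to 5 short motifs, searched on both strands, and no matches overlapped. The first was TGANTCA, the AP-1 motif. An E-box was searched as CACGTG, a core bound by ETS factors as GAGGAA and a TATA box as TATAAA. The last was a site for a nuclear receptor monomer, AGGTCA, which reads TGACCT on the other strand.
Plin2, chr4:86670010-86670309, minus strand: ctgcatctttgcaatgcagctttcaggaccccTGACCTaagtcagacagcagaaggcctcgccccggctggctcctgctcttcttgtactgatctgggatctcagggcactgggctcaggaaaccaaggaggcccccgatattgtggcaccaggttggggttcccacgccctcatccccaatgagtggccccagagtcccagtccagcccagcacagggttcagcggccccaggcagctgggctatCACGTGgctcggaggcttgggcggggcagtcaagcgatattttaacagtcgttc
Marco, chr1:120504975-120505274, minus strand: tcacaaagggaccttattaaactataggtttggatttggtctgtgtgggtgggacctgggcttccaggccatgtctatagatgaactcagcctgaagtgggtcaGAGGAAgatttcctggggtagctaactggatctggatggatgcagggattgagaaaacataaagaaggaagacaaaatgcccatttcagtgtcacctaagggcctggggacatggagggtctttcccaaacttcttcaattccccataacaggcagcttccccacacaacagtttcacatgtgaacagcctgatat
Stab1, chr14:31168592-31168891, minus strand: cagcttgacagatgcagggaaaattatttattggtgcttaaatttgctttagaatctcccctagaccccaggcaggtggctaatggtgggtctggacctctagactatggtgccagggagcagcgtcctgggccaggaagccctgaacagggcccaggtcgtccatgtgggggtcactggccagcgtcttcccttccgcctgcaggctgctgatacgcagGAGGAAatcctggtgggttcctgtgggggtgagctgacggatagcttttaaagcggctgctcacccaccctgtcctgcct

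Counted from the start of the transcript, the window of *Plin2* held an E-box whose first base is at position -4 and a nuclear receptor site at -218. *Marco* held GAGGAA at -146 and *Stab1* held it at -30. Among all 32851 windows of this length, 7.15% held the E-box, 16.26% the nuclear receptor site, 28.28% GAGGAA, 7.81% the AP-1 motif and 13.62% the TATA box. A match of these letters is a description of the window and was not tested as a binding site.

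A gene was called differentially expressed (DE) at a change of at least 2-fold and an adjusted p-value under 0.05 (limma on log2(CPM + 0.5), Benjamini-Hochberg over 16810 genes). After HS, 4 of the 9 genes were DE and higher than in NI at 72 h, where 9.08% of all genes were, 4 at 1 week (1.70% of all genes) and 5 at 2 weeks (2.43%). After FT, 5 were higher at 72 h (8.14%), 4 at 1 week (2.86%) and 4 at 2 weeks (3.53%). None of the 9 was DE and lower in these 6 comparisons, where 4.31%, 0.482% and 0.797% of all genes were after HS and 4.09%, 1.20% and 1.36% after FT. The median log2 fold change of the 9 genes was 0.91, 0.79 and 1.03 at 72 h, 1 week and 2 weeks after HS and 1.19, 1.19 and 0.89 after FT, whereas that of all genes lay between -0.11 and 0.02. All samples lay above all NI samples for 6, 5 and 6 of the 9 genes at 72 h, 1 week and 2 weeks after HS (24.0%, 20.2% and 14.5% of all genes) and for 6, 7 and 6 after FT (22.2%, 11.4% and 17.3%). *Msr1*, *Fabp5* and *Plin2* were DE in all 6 comparisons, *Colec12* in 5 and *Marco* in 3. The remaining genes, *Cd36*, *Scarb1*, *Stab1* and *Fabp4*, were DE in none. Without FT 1 week replicate 1 the counts of DE genes stayed at 4, 4, 5, 5, 4 and 4. As the 9 genes were chosen with earlier results of these data known, the shares of all genes describe the set and do not test it.

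**Figure D2:**
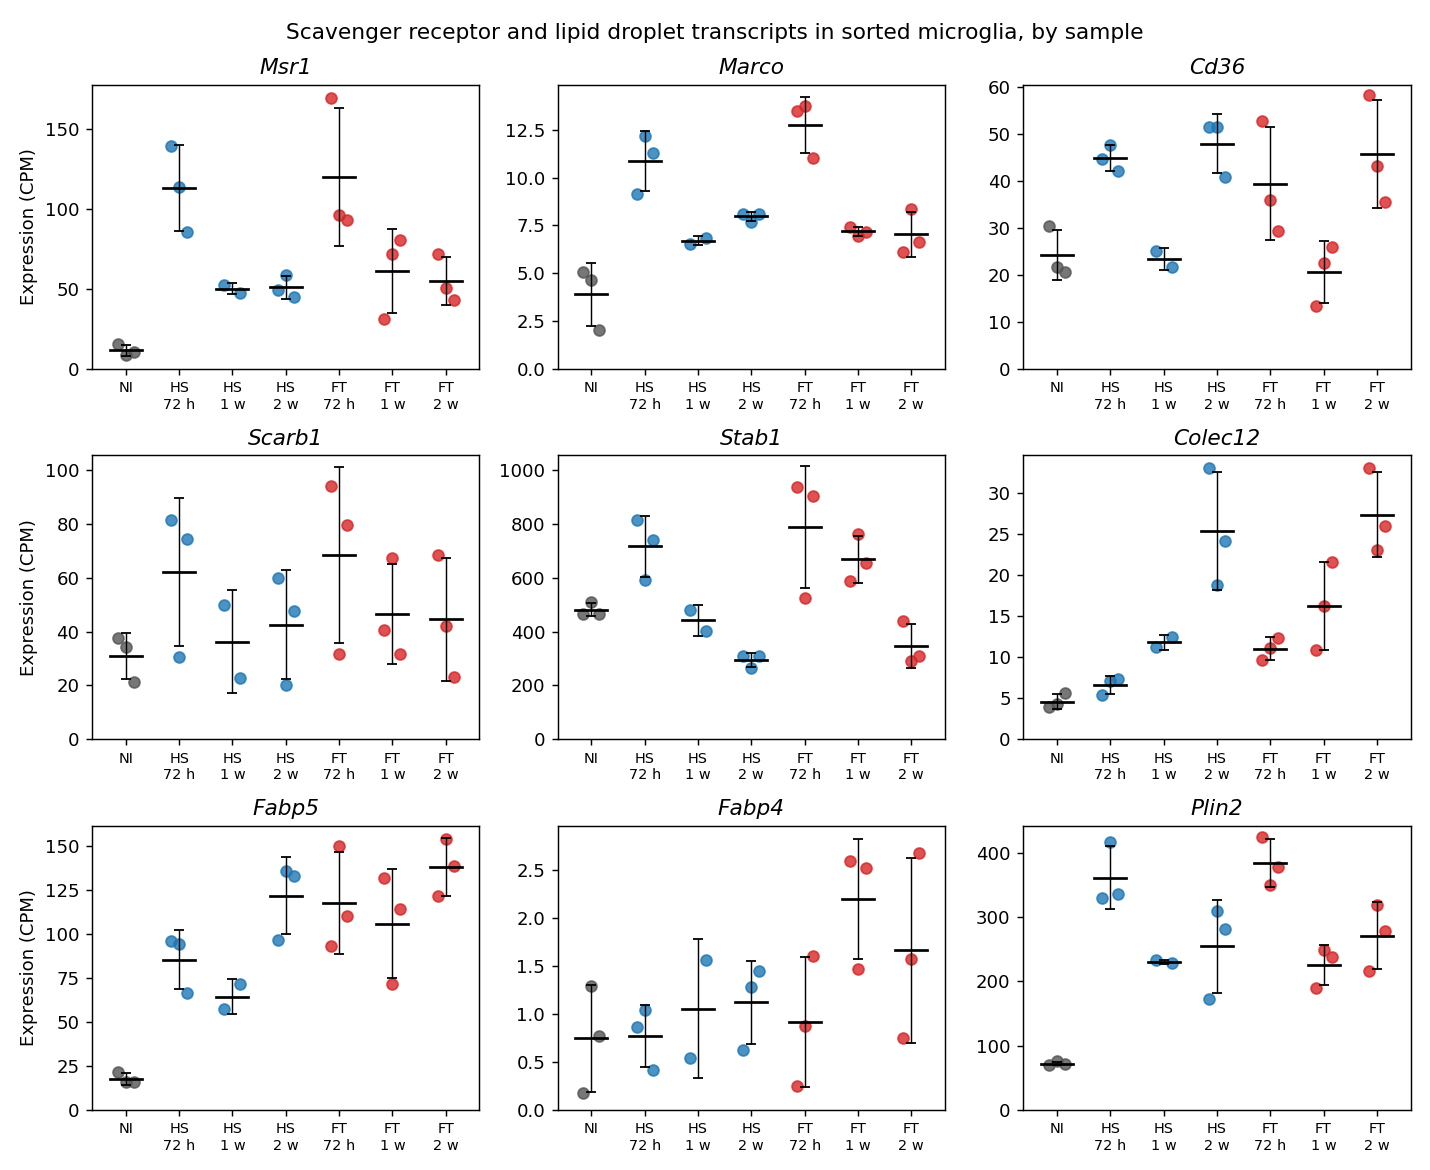
Expression in CPM (y axis, from 0, with a scale for each gene) of the 9 genes in NI (grey), HS (blue) and FT (red) samples (x axis). Each circle is a sample, horizontal lines are group means and error bars are SD. All injured samples lie above all NI samples for *Msr1*, *Fabp5* and *Plin2*, and *Stab1* and *Colec12* move in opposite directions from 72 h to 2 weeks.

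*Msr1* encodes the class A scavenger receptor of macrophages, a trimer that takes up modified low density lipoprotein (chr8:39581685-39642673). It had 15.4, 8.37 and 10.7 CPM in the 3 NI samples. At 72 h it had 139.6, 114 and 85.7 CPM after HS and 169.7, 96.4 and 93.4 CPM after FT. The groups did not overlap, and even the lowest sample at 72 h stood far above the highest NI sample. At 1 week it had 52.6 and 47.8 CPM after HS, and 31.1, 72.2 and 80.4 CPM after FT. At 2 weeks the values were 49.3, 58.8 and 44.9 CPM after HS and 71.7, 50.5 and 42.8 CPM after FT. Every later sample thus lay between NI and the 72 h samples, and the lowest was FT 1 week replicate 1. Against NI, *Msr1* at 72 h was 9.55-fold higher for HS (log2 3.26, SE 0.31, limma adjusted p = 1.23e-07) and 9.92-fold higher for FT (log2 3.31, SE 0.31, limma adjusted p = 1.03e-07). The log2 differences at 1 and 2 weeks were 2.12 and 2.13 for HS, and 2.29 and 2.22 for FT, with limma adjusted p-values of 4.51e-05 to 0.000756.

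Tested directly, *Msr1* fell by 1.14 on the log2 scale from 72 h to 1 week after HS (limma adjusted p = 0.042), and by 1.12 from 72 h to 2 weeks (limma adjusted p = 0.0241), with 6.03% and 4.74% of all genes DE in these comparisons. After FT it fell by 1.09 from 72 h to 2 weeks (limma adjusted p = 0.0394; 3.81% of all genes). The difference of -1.02 between FT 72 h and FT 1 week missed the threshold (limma adjusted p = 0.0585). These decreases rest on single libraries and on the scaling. Under quantile normalization and with columns scaled to 1 total, *Msr1* missed the threshold from 72 h to 1 week after HS (-0.88 and -0.84), and from 72 h to 2 weeks after HS (-0.94 in both cases). From 72 h to 2 weeks after FT it did so under quantile normalization (-0.998). Without FT 72 h replicate 1, which had the highest value, the difference after FT was -0.81 (limma adjusted p = 0.189), and the call was also lost without FT 72 h replicate 2 or FT 2 week replicates 2 or 3. The difference from 72 h to 2 weeks after HS was -0.96 without HS 72 h replicate 1 (limma adjusted p = 0.134) and was lost without HS 72 h replicate 2 or HS 2 week replicates 1 or 3 as well. That from 72 h to 1 week after HS was lost without any of 6 samples, among them both HS 1 week samples. The group means of the summed monocyte markers were also highest at 72 h. At 1 week these markers summed to 87.9 to 109 CPM after HS and 56.9 to 67.5 CPM after FT. *Msr1* was then 4.34-fold and 4.89-fold above NI. At 2 weeks they summed to 45.9 to 73.8 CPM after HS and 42.9 to 62.0 CPM after FT, with *Msr1* 4.39-fold and 4.65-fold above NI. The part of monocytes and cells derived from them in the rise of *Msr1* was not tested.

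*Marco* encodes another class A receptor, known from macrophages of the spleen and lung that bind bacteria (chr1:120474538-120505024). It was a low transcript, with 5.06, 4.63 and 2.01 CPM in NI. In the 72 h samples it had 9.12, 12.2 and 11.3 CPM after HS and 13.5, 13.7 and 11.04 CPM after FT. At the later times all 11 samples lay between 6.08 and 8.36 CPM, above every NI sample. *Marco* was 2.71-fold higher than in NI at 72 h after HS (log2 1.44, SE 0.25, limma adjusted p = 0.000187) and 3.17-fold higher after FT (log2 1.67, SE 0.25, limma adjusted p = 4.3e-05). With every column scaled to 1 total, the change after HS was 0.98 and under 2-fold. At 2 weeks after HS it was at the limit of 2-fold (log2 1.03, limma adjusted p = 0.015). That call was lost without NI replicate 3 (0.66), which had the lowest value, and without HS 2 week replicates 1 or 3 (1.01 in both cases). It was lost as well with columns scaled to 1 total (0.74), with 1 CPM added in place of 0.5 (0.94) and in a fit of only the 2 groups compared (limma adjusted p = 0.0677). At 1 and 2 weeks after FT the log2 fold changes were 0.89 and 0.85, with limma adjusted p-values of 0.0316 and 0.0363, under the 2-fold limit. At 1 week after HS it was 0.79 (limma adjusted p = 0.16), and 1.05 at 1 week after FT under quantile normalization.

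*Colec12* encodes a collectin with a C-type lectin domain, a scavenger receptor better known from vascular endothelium (chr18:9707595-9882644). It had 3.87, 4.25 and 5.66 CPM in NI, and 5.42, 7.07 and 7.38 CPM at 72 h after HS, where the groups overlapped. At 72 h after FT it had 9.61, 11.1 and 12.4 CPM, above all NI and HS samples of that time. At 1 week it had 11.2 and 12.4 CPM after HS and 10.8, 16.2 and 21.6 CPM after FT. At 2 weeks it had 33.1, 18.8 and 24.2 CPM after HS and 33.0, 23.0 and 26.0 CPM after FT, so that the highest group means were those of the last time. In HS samples *Colec12* exceeded NI by 0.49 at 72 h (limma adjusted p = 0.152), 1.28 at 1 week (limma adjusted p = 0.0106) and 2.32 at 2 weeks (limma adjusted p = 2e-06) on the log2 scale. In FT samples the excess was 1.19 (limma adjusted p = 0.00141), 1.68 (limma adjusted p = 0.000144) and 2.45 (limma adjusted p = 6.79e-07), the last being 5.46-fold. From 72 h to 2 weeks *Colec12* rose by 1.83 after HS (limma adjusted p = 3.76e-05) and by 1.26 after FT (limma adjusted p = 0.00275). It was the 1 gene of the 9 that was DE and higher between these times, where 1.37% of all genes were after HS and 1.13% after FT. The call at 1 week after HS was lost when any of 4 samples was left out (NI replicates 1 or 2, or either HS sample, 1.18 to 1.36), and that at 72 h after FT was under 2-fold with columns scaled to 1 total (0.75). Over the same samples the 11 endothelial markers summed to 31.6 to 95.3 CPM, with 61.3 to 95.3 CPM in NI and 43.7 to 87.1 CPM at 2 weeks. At 2 weeks 1 of these 11 was higher (*Flt1*) and 1 lower (*Pecam1*) than in NI, after HS and after FT, and the part of endothelium in the rise of *Colec12* was not tested.

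*Stab1* encodes stabilin-1, a large receptor of macrophages and sinusoidal endothelium that binds SPARC and acetylated low density lipoprotein (chr14:31139013-31168641). It was the most abundant of the 9 transcripts in NI, with 467, 510.4 and 467 CPM. It had 816, 592 and 741 CPM at 72 h after HS and 936, 526 and 905 CPM at 72 h after FT, all above NI. At 1 week the HS samples, with 481 and 402 CPM, overlapped with NI, while the FT samples, with 589, 762 and 657 CPM, lay above it. At 2 weeks it had 310.3, 265 and 308 CPM after HS and 440.3, 291 and 309 CPM after FT, all below NI. All samples lay below all NI samples in this way for 10.3% of all genes after HS and 13.3% after FT. None of the changes from NI was DE: the log2 difference was 0.56 at 72 h (limma adjusted p = 0.059) and -0.71 at 2 weeks (limma adjusted p = 0.0649) after HS, and 0.67 at 72 h (limma adjusted p = 0.0294) and -0.50 at 2 weeks (limma adjusted p = 0.206) after FT. The difference at 2 weeks after HS was DE after quantile normalization (-1.09) and with columns scaled to 1 total (-1.04), and that at 72 h after HS was -0.08 after quantile normalization. Between times the change was larger than the spread between replicates: from 72 h to 2 weeks *Stab1* fell by 1.27 after HS (SE 0.22, limma adjusted p = 0.000509) and by 1.16 after FT (SE 0.22, limma adjusted p = 0.00158). Both decreases remained DE under all 32 alternatives.

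Markers of border-associated macrophages, which line the meninges and vessels, were lower at the same time. Their 9 genes summed to 195 to 202 CPM in NI, 199.7 to 254, 159 to 165 and 123 to 133 CPM at 72 h, 1 week and 2 weeks after HS, and 241 to 299.5, 246 to 341 and 169 to 173 CPM after FT. At 2 weeks 5 of these 9 markers (*Mrc1*, *Cd163*, *Lyve1*, *Cbr2* and *Pf4*) were DE and lower than in NI after HS and after FT. On the other hand, *Ms4a7* and *Siglec1* were higher after both, and *Folr2* after FT. At 72 h 0 of the 9 were DE and lower after HS and 2 after FT (*Mrc1* and *Lyve1*), with 2 and 3 higher. None of the 9 was at 0 in any sample. Of 8 astrocyte markers, 2 also fell from 72 h to 2 weeks after HS and 6 after FT. The part of these cells in the decrease of *Stab1* was not tested.

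*Cd36* encodes a class B receptor that imports long-chain fatty acids and oxidized lipoproteins (chr5:17781690-17888801). It had 30.4, 21.6 and 20.6 CPM in NI. At 72 h it had 44.7, 47.6 and 42.0 CPM after HS, all above NI, and 52.8, 35.9 and 29.4 CPM after FT, 1 of them below the highest NI sample. At 1 week the samples overlapped with NI, with 25.1 and 21.7 CPM after HS and 13.3, 22.5 and 25.9 CPM after FT. At 2 weeks it had 51.5, 51.5 and 40.7 CPM after HS and 58.1, 43.2 and 35.5 CPM after FT, again all above NI. The group means thus ran high, low and high over the 3 times, after either injury. On the log2 scale *Cd36* differed from NI by 0.89 (limma adjusted p = 0.0103), -0.03 (limma adjusted p = 0.988) and 0.98 (limma adjusted p = 0.0199) in HS samples, and by 0.67 (limma adjusted p = 0.0532), -0.26 (limma adjusted p = 0.668) and 0.89 (limma adjusted p = 0.0254) in FT samples, so that 3 of these 6 had an adjusted p under 0.05 with a change of 1.86 to 1.98-fold. Without NI replicate 1, the highest of its group, these 3 changes passed 2-fold (1.06 to 1.15), as did that at 2 weeks without HS 2 week replicate 3 (1.09) or FT 2 week replicate 3 (1.06).

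From 72 h to 1 week *Cd36* differed by -0.93 after HS (limma adjusted p = 0.0378) and by -0.93 after FT (limma adjusted p = 0.0287; 3.44% of all genes were DE), under the 2-fold limit. Without FT 72 h replicate 3 or FT 1 week replicates 2 or 3, the difference after FT passed it (-1.02 to -1.12). From 1 to 2 weeks it differed by 1.02 after HS (95% interval 0.44 to 1.59, limma adjusted p = 0.609; 0.0119% of all genes were DE) and by 1.15 after FT (95% interval 0.64 to 1.66, limma adjusted p = 0.118). In this last comparison, where limma called 12 of all genes (0.0714%), *Cd36* was DE by the likelihood ratio test of edgeR (adjusted p = 0.0134) and by DESeq2 (adjusted p = 0.00976) on recovered reads.

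*Scarb1* encodes SR-BI, the class B receptor for high density lipoprotein that moves cholesteryl esters and cholesterol across the membrane (chr5:125277087-125341094). It had 37.5, 34.4 and 21.4 CPM in NI. At 72 h it had 81.4, 30.7 and 74.4 CPM after HS and 94.1, 31.5 and 79.7 CPM after FT, so that 1 sample of each group lay within the range of NI. At 1 week it had 49.7 and 22.6 CPM after HS and 40.6, 67.2 and 31.5 CPM after FT. At 2 weeks it had 60.03, 20.3 and 47.5 CPM after HS and 68.6, 42.1 and 23.2 CPM after FT. In each injured group the highest sample was 2.13 to 2.98 times the lowest. Its log2 differences from NI ranged from 0.15 to 1.02 and had limma adjusted p-values of 0.125 to 0.961. Without FT 72 h replicate 2, the change at 72 h after FT was 1.504 (limma adjusted p = 0.0346). The SD within groups was 0.72 on the log2 scale, above that of 97.9% of the 3994 genes with a mean within 2-fold of that of *Scarb1*, whose median SD was 0.25.

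*Scarb1* did not vary alone. The genes with the most similar pattern over the 20 samples were *Gak*, a kinase that uncoats clathrin vesicles (Pearson r = 0.95), *Tmem9b* (r = 0.95) and *Pfn1*, which encodes the actin-binding protein profilin 1 (r = 0.95). In HS 72 h *Pfn1* had 611 and 478 CPM in replicates 1 and 3 but 75.4 CPM in replicate 2, where *Scarb1* was also lowest. In FT 72 h *Pfn1* had 543 and 466 CPM in replicates 1 and 3 but 84.7 CPM in replicate 2. The leading axis of the deviations from the group means, over 14051 genes with a mean of at least 1 CPM, held 25.3% of the variance within groups. FT 1 week replicate 1 had the largest value on it (-0.54), followed by FT 1 week replicate 2 (0.37). In that group *Scarb1* did not keep the order of the axis, with 40.6 CPM in replicate 1 and 31.5 CPM in replicate 3 (0.17). The direction of the axis was set so that *Scarb1* was positive on it. *Stab1* (r = 0.78), *Scarb1* (r = 0.74), *Msr1* (r = 0.70), *Cd36* (r = 0.68) and, less closely, *Colec12* (r = 0.43) deviated along it, *Fabp5* (r = -0.63) and *Fabp4* (r = -0.54) against it, and *Marco* (r = -0.00055) and *Plin2* (r = -0.068) hardly at all. These correlations are descriptions over the same 20 libraries.

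**Figure D3:**
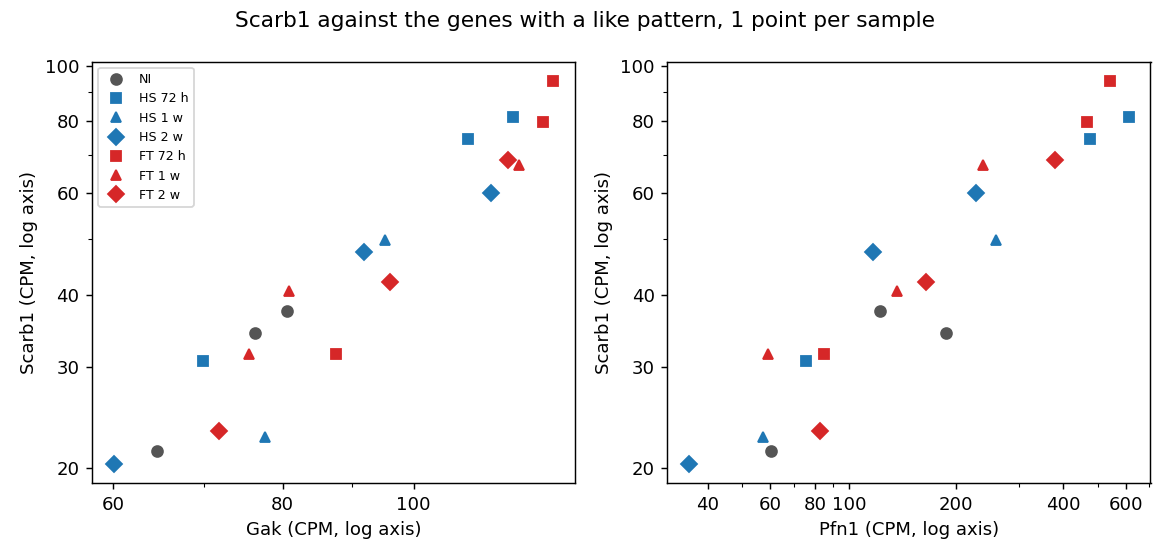
Expression of *Scarb1* (y axis, CPM, log axis) against *Gak* (left) and *Pfn1* (right, x axes, CPM, log axes), with a point for each of the 20 samples, NI in grey, HS in blue and FT in red, and the times by symbol. In FT 72 h *Scarb1* had 31.5 CPM in 1 sample, which was also lowest in *Gak* and *Pfn1*, and 79.7 and 94.1 CPM in the others. The order was not kept in every group: in NI *Pfn1* was highest in replicate 2 (187 CPM) and *Scarb1* in replicate 1 (37.5 CPM).

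*Fabp5* encodes the epidermal fatty acid-binding protein, which carries long-chain fatty acids in macrophages (chr3:10012548-10016607). It had 21.7, 15.7 and 15.6 CPM in NI. In the 72 h samples it had 95.9, 94.0 and 66.4 CPM after HS and 93.0, 149.8 and 110.3 CPM after FT. At 1 week it had 57.3 and 71.3 CPM after HS and 132, 71.8 and 114 CPM after FT. At 2 weeks it had 96.5, 136 and 133 CPM after HS and 121, 154 and 139 CPM after FT. All 17 injured samples lay above all NI samples. The log2 differences from NI at the 3 times were 2.24, 1.84 and 2.75 for HS, and 2.69, 2.52 and 2.94 for FT (SE 0.23 to 0.26, limma adjusted p-values of 2.03e-08 to 0.000151), reaching 7.68-fold at 2 weeks after FT. No decrease of *Fabp5* after 72 h passed the test, and from 72 h to 2 weeks it differed by 0.51 after HS (95% interval 0.03 to 1.00, limma adjusted p = 0.169) and by 0.25 after FT (95% interval -0.23 to 0.74, limma adjusted p = 0.601). The genome also holds *Fabp5l2*, a pseudogene of *Fabp5*, and reads shared with it could not be separated here.

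*Fabp4*, which encodes the fatty acid-binding protein of adipocytes and of some macrophages, lies in the same cluster of the family (chr3:10204088-10208576). It was detected with only 2 to 35 reads per sample. In NI it had 0.179, 1.29 and 0.767 CPM, in HS samples 0.410 to 1.56 CPM, in FT 72 h 0.250 to 1.60 CPM, in FT 1 week 2.59, 1.47 and 2.52 CPM and in FT 2 weeks 0.749 to 2.67 CPM. Samples at 1 week after FT lay above NI, but the difference (log2 1.19) missed the threshold (limma adjusted p = 0.108), NI replicate 1 held only 3 reads, and quantile normalization gave a call (1.38). The neighbours *Fabp5* and *Fabp4* thus differed in level by a wide margin. Per kilobase of the main transcript, *Fabp5* had 17.9 ± 3.52 CPM per kb and *Fabp4* 0.831 ± 0.619 CPM per kb in NI (SD, n = 3), and 139.9 ± 16.6 and 1.86 ± 1.08 CPM per kb at 2 weeks after FT (SD, n = 3).

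*Plin2* encodes perilipin 2, or adipophilin, the coat protein of droplets in most cells other than adipocytes (chr4:86648386-86670060). It had 70.2, 75.2 and 70.5 CPM in NI, the narrowest relative spread among the 9 genes in NI. At 72 h it had 330.1, 417 and 336 CPM after HS and 424, 349 and 378 CPM after FT. At 1 week it had 233 and 228 CPM after HS and 189, 248 and 238 CPM after FT. At 2 weeks it had 173, 309 and 281 CPM after HS and 216, 319 and 278 CPM after FT. Every injured sample was thus far above the highest NI sample, and all 6 samples of 72 h lay above all later ones. Against NI the log2 differences at the 3 times were 2.31, 1.67 and 1.77 for HS, and 2.40, 1.63 and 1.89 for FT (SE 0.20 to 0.22, limma adjusted p-values of 1.78e-08 to 8.21e-05), and at 72 h this was 4.97-fold and 5.29-fold. From 72 h to 1 week it differed by -0.64 after HS (limma adjusted p = 0.0746) and by -0.77 after FT (limma adjusted p = 0.0248), under 2-fold in both.

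Per kilobase, the order of the mean levels in NI was *Stab1* (60.2 ± 3.13 CPM per kb), *Plin2* (38.1 ± 1.47), *Fabp5* (17.9 ± 3.52), *Scarb1* (12.3 ± 3.38), *Msr1* (8.09 ± 2.53), *Cd36* (7.12 ± 1.58), *Marco* (2.03 ± 0.858), *Fabp4* (0.831 ± 0.619) and *Colec12* (0.572 ± 0.117 CPM per kb, SD, n = 3 each). At 72 h after FT *Plin2* was first (203 ± 19.95 CPM per kb), followed by *Fabp5* (119 ± 29.5), *Stab1* (98.6 ± 28.5) and *Msr1* (84.2 ± 30.4 CPM per kb, SD, n = 3 each), the SD of these last values overlapping. At 2 weeks after HS *Stab1* (36.8 ± 3.20 CPM per kb) was below *Plin2* (135 ± 38.1) and *Fabp5* (123 ± 22.2 CPM per kb, SD, n = 3 each). Over the 20 samples *Plin2* was most like *Msr1* (r = 0.92) and *Marco* (r = 0.86) among the 9 genes. Among all genes the closest to *Plin2* were *Anxa2*, *Gpr65* and *Spp1* (r = 0.96, 0.94 and 0.94), to *Msr1* *Arhgap19*, *Pygl* and *Eif4b* (r = 0.96 each), and to *Fabp5* *Cd63*, *Cd52* and *Fabp3* (r = 0.95 each). *Colec12* was closest to *Tapbp*, *Slc16a10* and *Cspg4* (r = 0.94, 0.93 and 0.92), *Marco* to *Prickle3*, *C1ra* and *Htatip2* (r = 0.92, 0.92 and 0.91), *Cd36* to *Lat2*, *Itgb2* and *Tbrg1* (r = 0.88, 0.82 and 0.81) and *Stab1* to *Ccr1*, *Mpi* and *Med24* (r = 0.86, 0.84 and 0.83). *Fabp4*, with its few reads, was closest to *Parp12*, *Gpr17* and *Ogfr* (r = 0.74, 0.72 and 0.70).

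The 2 severities of injury were then compared directly at each time. No member of the 9 genes was DE between FT and HS at 72 h, 1 week or 2 weeks, where limma called 0 of all genes (0%). At an unadjusted p under 0.05 there were 1, 2 and 0 of the 9 genes, against 505, 724 and 438 of all genes, and edgeR and DESeq2 on recovered reads called 0 of the 9. Over all genes the likelihood ratio test of edgeR called 0, 8 and 1 and DESeq2 0, 7 and 1. The differences under that p were all higher after FT: *Colec12* at 72 h (0.70, 95% interval 0.18 to 1.22), and *Fabp5* (0.68, 95% interval 0.14 to 1.22) and *Stab1* (0.60, 95% interval 0.09 to 1.10) at 1 week, with limma adjusted p of 1.00 and, at 1 week, 0.999. For *Msr1* the interval of the difference between FT and HS ran from -0.59 to 0.70 at 72 h and from -0.56 to 0.73 at 2 weeks, and for *Plin2* from -0.33 to 0.51 and from -0.30 to 0.54. For *Scarb1* it was wider, from -0.88 to 1.11 at 72 h. Intervals of this width do not show that the severities act alike, and 2-fold differences lie outside those of *Msr1* and *Plin2*.

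**Figure D4:**
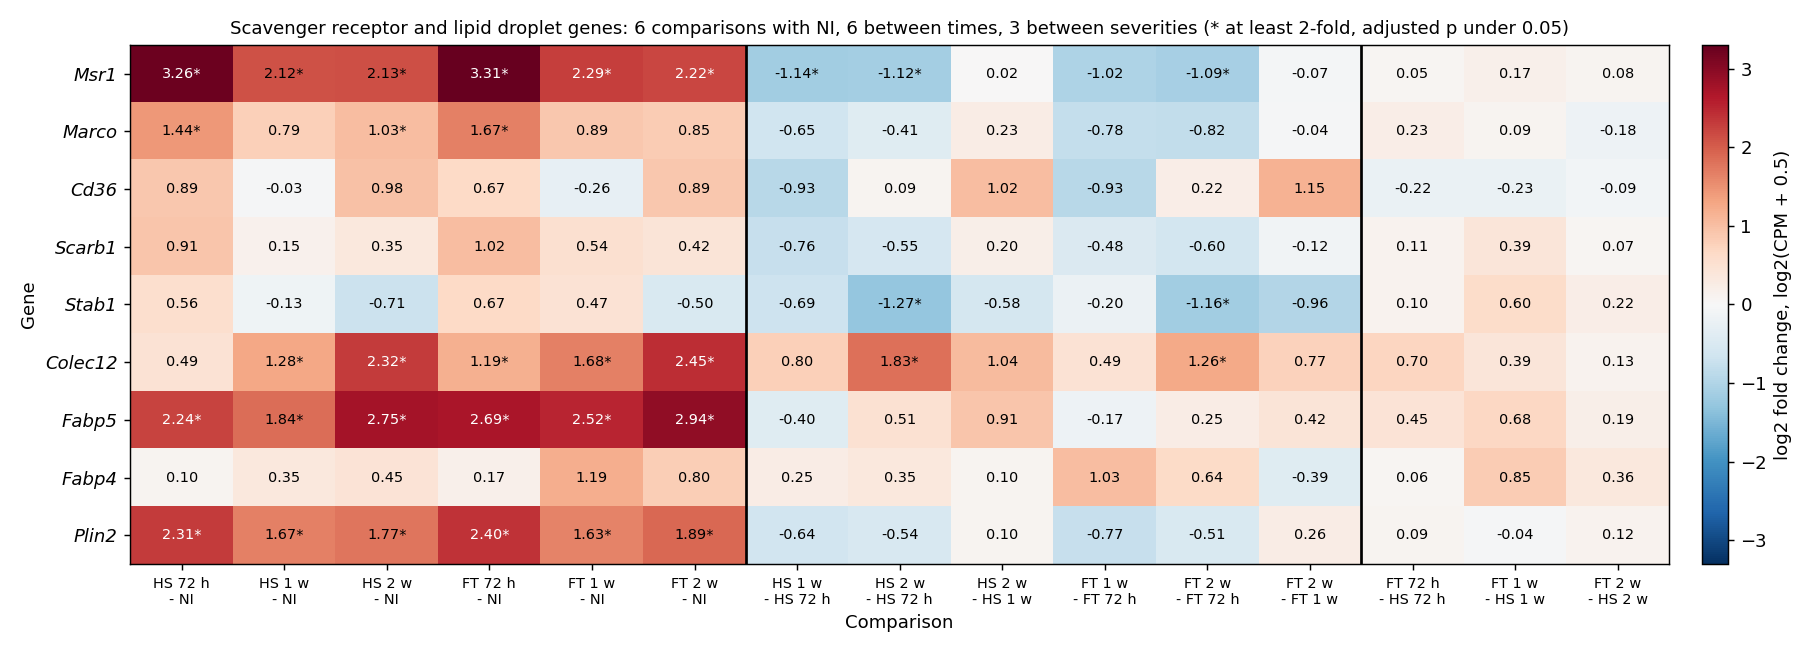
Log2 fold change (colour and printed value, on the log2(CPM + 0.5) scale) of the 9 genes (rows) in 6 comparisons with NI, 6 between times after the same injury and 3 between FT and HS (columns, separated by lines). Asterisks mark DE genes. The comparisons with NI are mostly red, with 3.31 for *Msr1* at 72 h after FT as the highest value, and no asterisk stands in the comparisons of severity.

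Other genes of the same pathways were examined from lists of 14 scavenger receptors, 4 fatty acid-binding proteins, 10 lipid droplet proteins, 15 genes of triglyceride and cholesteryl ester synthesis, 7 of neutral lipid breakdown and 12 lipid-sensing transcription factors in the table. Of the 14 other scavenger receptors, the HS samples had 2, 2 and 3 higher at the 3 times and the FT samples 2, 3 and 3. The numbers lower were 0, 0 and 2 for HS and 1, 2 and 2 for FT. Their median log2 fold change was -0.13, 0.17 and 0.07 for HS and -0.32, -0.19 and -0.17 for FT, against -0.11 to 0.02 for all genes. For the other lists the medians ran from 0.09 to 0.35 (fatty acid-binding proteins) and 0.08 to 0.36 (lipid droplet proteins). They ran from -0.41 to 0.11 for synthesis, -0.04 to 0.53 for breakdown and -0.26 to 0.0002 for the transcription factors. *Olr1*, the lectin-like receptor for oxidized lipoprotein, went from 3.44 ± 0.359 CPM in NI to 20.1 ± 2.80 CPM in HS and 26.2 ± 3.65 CPM in FT samples at 2 weeks (SD, n = 3 each). It was DE in all 6 comparisons (log2 1.18 to 2.76), although at 72 h not with columns scaled to 1 total, without HS 72 h replicate 2 (HS) or without FT 72 h replicate 1 (FT). *Cxcl16*, a chemokine that in its membrane form binds oxidized lipoprotein, rose by 1.39 to 2.01 at 1 and 2 weeks, the call at 1 week after HS being lost without HS 1 week replicate 1. *Cd68*, a lysosomal glycoprotein, was also DE in 5 of the 6 comparisons, and is named here after its values were seen. All 5 of these calls were lost after quantile normalization. Those at 72 h and 2 weeks after either injury were also lost with columns scaled to 1 total. *Cd163*, the haemoglobin receptor, and *Mrc1*, the mannose receptor, had log2 fold changes of -1.97 and -1.42 in HS and -1.99 and -1.58 in FT samples at 2 weeks. At 1 week after FT both were lower too, but the call of *Cd163* (-1.38, limma adjusted p = 0.0458) was lost in 18 of 32 alternatives, among them the replicate block and leaving out any 1 of the NI samples, and that of *Mrc1* (-1.01) without NI replicate 1 or FT 1 week replicate 1. *Mrc1* was also DE and lower at 72 h after FT (-1.05, limma adjusted p = 0.000512), a call lost without NI replicate 1 or FT 72 h replicate 3. At 72 h and 1 week after HS it was -0.96 and -0.94 (limma adjusted p = 0.00104 and 0.0203), under the 2-fold limit. *Cd163* was -0.64 and -0.86 at 72 h after HS and FT (limma adjusted p = 0.256 and 0.134). *Cd163* and *Mrc1* also belong to the markers of border-associated macrophages above. With every column scaled to 1 total, 0 of the 14 were higher and 5 lower at 72 h after either injury. Under that scaling all genes shifted, with a median log2 fold change at 72 h of -0.52 for HS and -0.48 for FT. Only 16.2% and 18.5% of all DE genes were then higher.

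Among the other fatty acid-binding proteins, *Fabp3*, the form of heart and muscle, was DE in all 6 comparisons, from 3.32 ± 0.626 CPM in NI to 32.9 ± 5.70 CPM at 2 weeks after FT (SD, n = 3 each), or 2.54 to 3.13 on the log2 scale. *Fabp7*, the form of radial glia and astrocytes, was higher at 72 h after FT (1.15) and *Fabp12* at 2 weeks after FT (1.21), each in 1 comparison. The call of *Fabp7* was lost without any 1 of the NI samples or without FT 72 h replicate 2, and that of *Fabp12* without NI replicate 2 or FT 2 week replicate 3. Both were also lost with columns scaled to 1 total. Of the 10 other lipid droplet proteins, *Plin3* (1.57 after HS and 1.67 after FT) and *Bscl2*, which encodes seipin (1.13 and 1.03), were higher at 72 h, and *Fitm2* was lower at 72 h after HS (-1.06). At 1 and 2 weeks 0 of the 10 were DE by limma, and 2 of the 10 had an adjusted p under 0.05 with no limit on the fold at 2 weeks after HS and at 1 and 2 weeks after FT. The later log2 fold changes of *Plin3* were 0.65 and 0.58 for HS (limma adjusted p = 0.061 and 0.041) and 0.67 and 0.93 for FT (limma adjusted p = 0.0126 and 0.000564) at 1 and 2 weeks, under the 2-fold limit, and its difference from *Plin2* was not tested. The calls of *Bscl2* were lost after quantile normalization and with columns scaled to 1 total, and that at 72 h after FT also without NI replicate 2 or FT 72 h replicate 3. The call of *Fitm2* was lost in 9 of 32 alternatives, among them quantile normalization and all 3 count tests.

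For the turnover of neutral lipid, *Lpl*, which encodes lipoprotein lipase, had the largest change of the named genes, from 67.8 ± 4.24 CPM in NI to 1117 ± 222 CPM in HS and 1202 ± 289 CPM in FT samples at 2 weeks (SD, n = 3 each), and was DE in all 6 comparisons (log2 2.87 to 4.11). *Nceh1*, a hydrolase of cholesteryl esters, was also DE in all 6 comparisons (1.62 to 2.21), and *Lipa*, the acid lipase of lysosomes, in 5 (1.10 to 1.24). The other 4 genes of breakdown were DE in none, but with columns scaled to 1 total 2 of the 7 were lower at 72 h after either injury. The median of all genes was itself -0.52 (HS) and -0.48 (FT) at 72 h under that scaling. Counts of lower genes under it, here and below, are therefore no result about these lists alone. In synthesis, *Soat1*, which esterifies cholesterol, rose in 5 comparisons (1.05 to 1.32), whereas the acyl-CoA synthetases *Acsl6* and *Acsl3* fell in 6 and 5 comparisons (by 1.04 to 2.56 and by 1.35 to 1.68), and *Dgat2* fell at 72 h after FT (by 1.29). With columns scaled to 1 total, all 5 calls of *Soat1* and all 5 of *Lipa* were lost, and 6 of the 15 genes of synthesis were lower at 72 h after either injury. After quantile normalization the 5 calls of *Lipa* were lost as well, as were those of *Soat1* at 72 h after either injury and at 1 week after FT. The call of *Dgat2* was lost without any 1 of 5 samples, and so was that of *Acsl6* at 72 h after FT and that of *Acsl3* at 2 weeks after FT. Neuron markers were lower in sum after injury. Their 8 genes summed to 45.0 to 79.7 CPM in NI and to 14.04 to 41.4 CPM in injured samples, with 0 to 4 of the 8 DE and lower in the 6 comparisons. Astrocyte markers went both ways. Their 8 genes summed to 428 to 718 CPM in NI, 307 to 610 CPM at 72 h after HS and 486 to 723 CPM at 72 h after FT. At 2 weeks they summed to 170 to 340 CPM (HS) and 192 to 303 CPM (FT). In the 6 comparisons 1 to 4 of the 8 were DE and lower. On the other hand, *Gfap* was DE and higher at 72 h after either injury and at 1 week after FT, and *Aldh1l1* at 72 h after FT. The part of neurons and astrocytes in the fall of *Acsl6* and *Acsl3* was not tested. Of the 12 transcription factors, only *Rxrg*, a retinoid X receptor, was DE, higher at 1 and 2 weeks by 1.95 and 2.51 in HS and by 2.33 and 2.68 in FT samples. *Pparg*, known as an inducer of *Cd36*, *Fabp4* and *Plin2*, had 0.948 ± 0.250 CPM in NI and group means of 0.712 to 1.42 CPM after injury, and is named here for that role, outside the rule for named genes. With columns scaled to 1 total, 3 of the 12 were lower at 72 h after either injury.

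**Figure D5:**
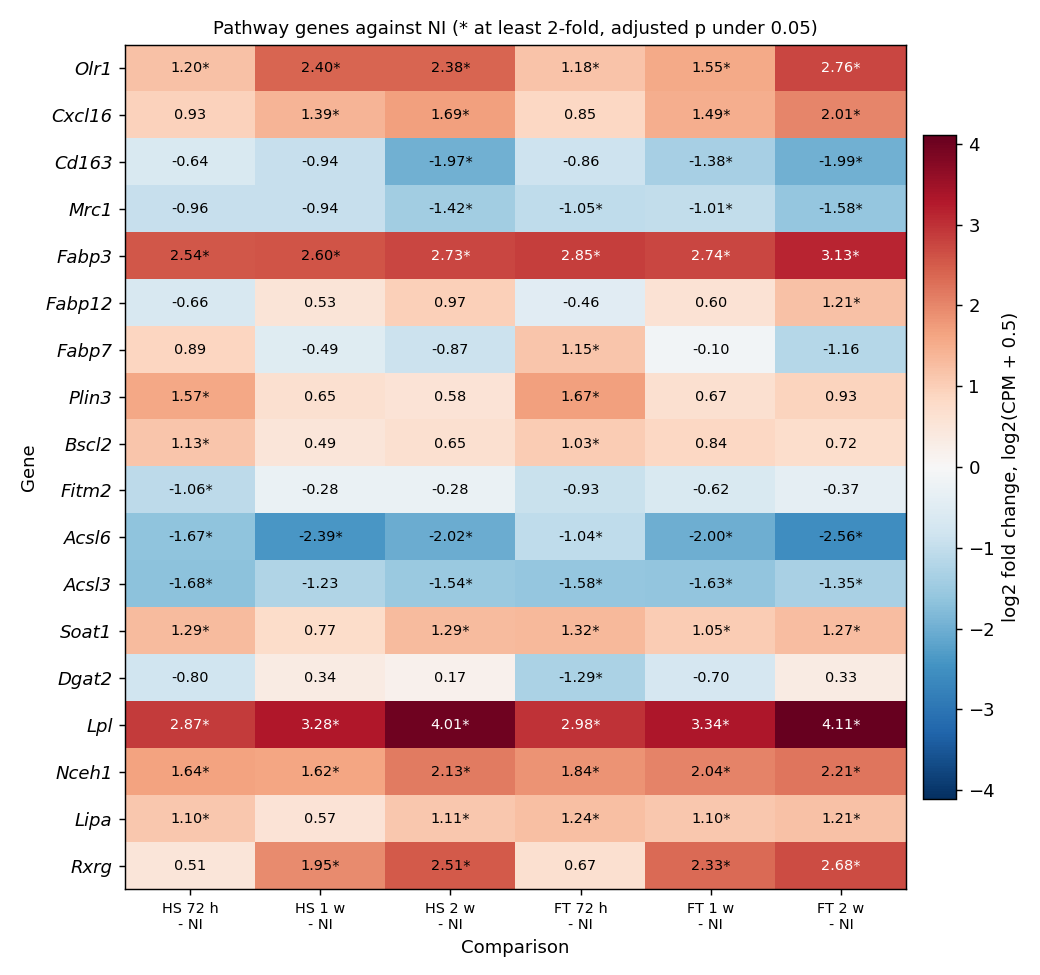
Log2 fold change from NI (colour and printed value, on the log2(CPM + 0.5) scale) of 18 genes named from the pathway lists (rows) in the 6 comparisons with NI (columns). The lists hold other scavenger receptors, fatty acid-binding proteins, lipid droplet proteins, genes of neutral lipid synthesis and breakdown, and lipid-sensing transcription factors. Asterisks mark DE genes. *Fabp3*, *Lpl* and *Nceh1* are high throughout, up to 4.11 for *Lpl* at 2 weeks after FT, while *Acsl6*, *Acsl3*, *Cd163* and *Mrc1* are low.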

How the data were processed

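Microglial RNA from 20 samples in 7 groups was analysed from 1 table of 16810 genes. The authors trimmed adapters, mapped reads to mm10 with TopHat2 (2.0.9), counted them per gene with HTSeq (0.5.4p3), retained genes reaching 10 reads in 2 replicates or more, and scaled the counts with edgeR (3.3.6), per the paper's methods and the submitters' processing notes. The deposited signal values are thus in CPM. Libraries were made from amplified cDNA, whose kit does not mark strand. Whole reads were recovered for 100% of the values (within 0.01 of a read), and gave the depth and the input of count tests.

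A value of 0.5 CPM was added before the log2, so that fold changes of low genes are understated. limma (3.58.1) was fitted to 7 group means with an intensity trend. Groups were taken from the labels. Alternatives (added value, low-value filter, scaling, tool, replicate block, left-out samples) included count tests of the recovered reads with DESeq2 (1.42.0) and edgeR (4.0.16). The fit was tested on simulated data. Genes named besides the 9 were the up to 4 DE genes of each pathway list with the largest change, and the 3 genes most correlated with each of the 9. *Cd68*, *Pparg* and single marker genes were named outside this rule, after their values were seen. Members, lists and rules were chosen with earlier results of these data known. Coordinates and transcript lengths (the main APPRIS transcript) came from GENCODE vM21 on GRCm38, the build of mm10. Lists are described by counts of DE genes, with no test of a list.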

Additional observations from a re-analysis of the deposited data

Results flagged for a closer look

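Differences between times after the same injury were flagged where the direct test between the times was DE. *Msr1* differed by -1.14 between 72 h and 1 week and by -1.12 between 72 h and 2 weeks after HS, and by -1.09 between 72 h and 2 weeks after FT. *Stab1* differed by -1.27 after HS and by -1.16 after FT between 72 h and 2 weeks, while *Colec12* differed by 1.83 and 1.26 over the same times. All are log2 differences with limma. No group held 4 or more samples, so that single outlying samples were not searched for.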

How the results depend on the processing

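The numbers of the 9 genes that were DE against NI stayed within 1.5 times under all 32 alternatives, and the log2 fold changes of all 33 DE comparisons of these genes kept their sign. Leaving out 1 sample gave 4 to 5 DE genes at 72 h, 3 to 4 at 1 week and 4 to 6 at 2 weeks after HS, and 5 to 6, 4 to 5 and 4 to 6 after FT. Between FT and HS it gave 0 in all cases. Between times it gave 0 to 1 (1 week against 72 h), 2 to 3 (2 weeks against 72 h) and 0 (2 weeks against 1 week) after HS, and 0 to 2, 2 to 3 and 0 to 1 after FT. For 1 week against 72 h after HS, quantile normalization gave 0 in place of 1 and no limit on the fold gave 2. With columns scaled to 1 total it stayed at 1, but *Msr1* (-0.84) was replaced by *Colec12* (1.08), in the opposite direction. For 1 week against 72 h after FT, no limit on the fold gave 2 in place of 0. For 2 weeks against 1 week after FT, the likelihood ratio test of edgeR and DESeq2 each gave 1 in place of 0, which was *Cd36*. Of the 71 comparisons of a gene with an unadjusted p under 0.05 or a call under any alternative, 1 changed sign, *Stab1* at 72 h after HS under quantile normalization (-0.083). Of the other 64 comparisons of a gene, 30 changed sign under at least 1 alternative. With every column scaled to 1 total, the median of all genes moved to -0.52, -0.17 and -0.29 at 72 h, 1 week and 2 weeks after HS and to -0.48, -0.32 and -0.36 after FT, and the share of higher among DE genes fell from 67.8%, 77.9%, 75.3%, 66.6%, 70.5% and 72.2% to 16.2%, 53.3%, 36.0%, 18.5%, 26.0% and 25.9%. After quantile normalization this share was 58.0% to 71.9%. The deposited columns summed to 777426 to 830481 CPM in NI and to 878070 to 1202186 CPM in injured samples. Scaling to 1 total therefore lowers every injured sample relative to NI. The total of a column follows from the edgeR factor by which the authors scaled it. Why these factors differ between NI and injured samples was not tested, and neither was the cause of the shift under quantile normalization.

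Over 57 pairs with the same replicate number, the correlation of deviations from the group means ran from -0.43 to 0.44 (median 0.0017). Of these pairs 20 were over 0.1, and 9 of 20 samples correlated best with a sample of their own number. On the leading axis of these deviations, replicate 1 had a positive value in every group except FT 1 week (-0.54). Whether the replicate numbers pair the samples is thus not settled here. A fit with the replicate number as a block called 4, 4, 5, 5, 4 and 4 of the 9 genes against NI, as without the block, 0 between FT and HS, and 1, 3, 0, 0, 3 and 0 between times. Among the other lists, leaving out 1 sample gave 2 to 4 DE scavenger receptors at 72 h and 1 to 3 at 1 week after HS (2 and 2 with all samples), 2 to 5 at 72 h and 3 to 5 at 1 week after FT (3 and 5; 3 at 1 week without FT 1 week replicate 1), and at 72 h after FT 1 to 2 lipid droplet proteins (2), 1 to 2 fatty acid-binding proteins (2) and 2 to 4 genes of synthesis (4). It gave 1 to 2 fatty acid-binding proteins at 72 h after HS (1) and 1 to 3 at 2 weeks after FT (2). Total scaling moved the genes of synthesis from 3 and 4 to 6 at 72 h, where the median of all genes also fell as given above. Depth limits *Fabp4* most, which had at most 35 reads in any sample.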
